A study of Mus musculus with 3 samples.

Results

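The neutrophils of lumbar DRGs were selected on their transcripts and made up 66 of the 9862 barcodes kept, or 0.669%. A member was chosen by at least 10 UMIs of S100a8 and S100a9 together and at least 1 UMI of Retnlg, Csf3r, Cxcr2, Ngp or Camp. It could hold at most 1 UMI of each of 4 gene pairs that mark macrophages (Csf1r and C1qa), endothelium (Pecam1 and Cdh5), Schwann cells (Mag and Prx) and neurons (Snap25 and Rbfox3). Barcodes under 300 genes or over 20% mitochondrial UMIs had been removed.

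Per the labels, all mice were C57BL/6J males at postnatal week 13. The study's text differs in sex and age range. It names the injury model of the single-cell data as partial sciatic nerve ligation in its Results and as spared nerve injury in its Discussion. The labels were followed. The mice were naïve and untreated, or had received spared nerve injury of both hindlegs 7 or 14 days before. Each of the 3 libraries pooled 8 L3 and L4 DRGs from 2 perfused mice, taken apart with collagenase and dispase and run on 10x 3′ v3 chemistry. With 1 library per condition, the effect of injury cannot be told apart from differences between mice or preparations, and both injury libraries were compared with the same naïve library.

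Neutrophils are short-lived granulocytes that are made in the bone marrow, where the genes for their granule proteins are switched on in waves. Primary granule enzymes come early, secondary granule proteins such as lactoferrin follow, and cells that leave for the blood have shut these genes down and carry receptors for chemokines and for granulocyte colony-stimulating factor. Neutrophils are best known as early arrivals in an injured nerve, where they release proteases, oxidants and cytokines.

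There were 19 neutrophils among 3246 kept barcodes of naïve mice, 20 among 2730 at 7 days and 27 among 3886 at 14 days. These are shares of 0.585% (95% interval 0.353–0.913), 0.733% (0.448–1.13) and 0.695% (0.458–1.01), and the intervals overlap. All intervals given here cover counting error only. Macrophage-gated cells, with at least 3 UMIs of Csf1r and C1qa, went from 2.22% of kept barcodes to 8.28% and 6.85% over the same libraries. Neutrophils were therefore 20.9% (13.1–30.7) of neutrophils and macrophage-gated cells together in naïve mice, 8.13% (5.04–12.3) at 7 days and 9.22% (6.16–13.1) at 14 days. Lymphocyte-gated cells, with at least 3 UMIs of Cd3e, Cd3d and Nkg7, numbered 8, 18 and 28. Whether the neutrophils came from the tissue, from blood left in its vessels or from another source such as bone marrow was not tested.

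**Figure D1:**
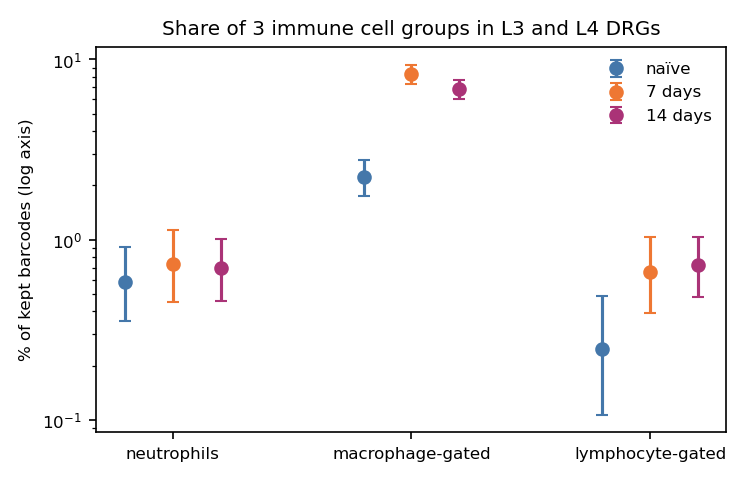
Share of kept barcodes that are neutrophils, macrophage-gated or lymphocyte-gated cells in each library, with exact 95% intervals for counting error. The axis is logarithmic.

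The choice by S100a8 and S100a9, which encode the calcium-binding subunits of calprotectin, left a wide gap. The member with the fewest UMIs of the 2 genes had 60 in naïve mice, 29 at 7 days and 72 at 14 days, and the barcode outside with the most, among those that met the other conditions, had 2, 0 and 1. At 14 days 1 further barcode with 445 such UMIs was left out because it held 2 UMIs of Csf1r. The 2 genes made up a median of 24.0%, 23.0% and 18.6% of a member's UMIs. All 66 cells carried UMIs of both, and 59 carried Retnlg, which encodes a resistin-like protein of granulocytes. Of the 16 neutrophil markers listed, all 16 were found, but 7 of them chose the cells. Among those the choice did not use, the collagenase gene Mmp8 was found in 15, 14 and 18 cells and the gelatinase gene Mmp9 in 18, 15 and 21.

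Members were shallower than other cells, with median UMIs of 1911, 2261 and 1841 against 3012, 3936 and 4154 over all kept barcodes. Their S100a8 and S100a9 made up 99.2%, 99.3% and 95.7% of these UMIs among kept barcodes. Schwann-gated cells, which should lack S100a8, had it in 0.638%, 1.66% and 1.24% of cells at median depths of 2712, 3759 and 3822 UMIs. The 3 libraries shared 9 barcodes, none of them a member.

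Transcript levels of granule genes were very unequal among the neutrophils. Ngp, Camp and Ltf encode neutrophilic granule protein, cathelicidin and lactoferrin of the secondary granules, and their summed UMIs were 0 in 30 cells, 1 to 9 in 7, 10 to 49 in 5 and at least 50 in 24. A limit of 10 UMIs splits this range into 29 granule-high and 37 granule-low cells, with only 4 cells near it, at 4, 4, 15 and 16 UMIs. Granule-high cells were 8 of 19 in naïve mice (42.1%, 20.3–66.5), 11 of 20 at 7 days (55.0%, 31.5–76.9) and 10 of 27 at 14 days (37.0%, 19.4–57.6). With every member thinned to 1000 UMIs, which left out 4, 1 and 2 shallower cells, the shares were 52.8%, 47.6% and 36.1%.

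Several genes used neither by the split nor by the choice of cells followed it. Granule-high cells had a median of 42 UMIs of Lcn2, which encodes the iron-siderophore-binding lipocalin 2, against 2 in granule-low cells. Chil3, for a chitinase-like protein, had medians of 12 and 0 and was found in 26 of 29 and 0 of 37 cells. Cd177, for a surface glycoprotein, was found in 29 of 29 granule-high cells at a median of 6 UMIs and in 9 of 37 granule-low cells at a median of 0, with 5 of these 9 at 7 days. In the other direction, the chemokine gene Ccl6 had medians of 0 and 5 in granule-high and granule-low cells. Il1b, which encodes interleukin-1β, was found in 1 of 29 granule-high and 27 of 37 granule-low cells. Over the 66 cells of all libraries, the Pearson correlation of log-scaled levels was 0.97 for Ngp and Camp, 0.94 for Ngp and Ltf, 0.90 for Ngp and Chil3 and -0.74 for Ngp and Il1b. Csf3r, for the receptor of granulocyte colony-stimulating factor, had medians of 1 and 3 UMIs in granule-high and granule-low cells and Retnlg 12 and 22, but cells without Ngp and Camp could only be chosen by Retnlg, Csf3r or Cxcr2, so this difference is in part set by the choice. The cells differed in depth as well, with a median of 2826 UMIs in granule-high and 1561 in granule-low cells.

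**Figure D2:**
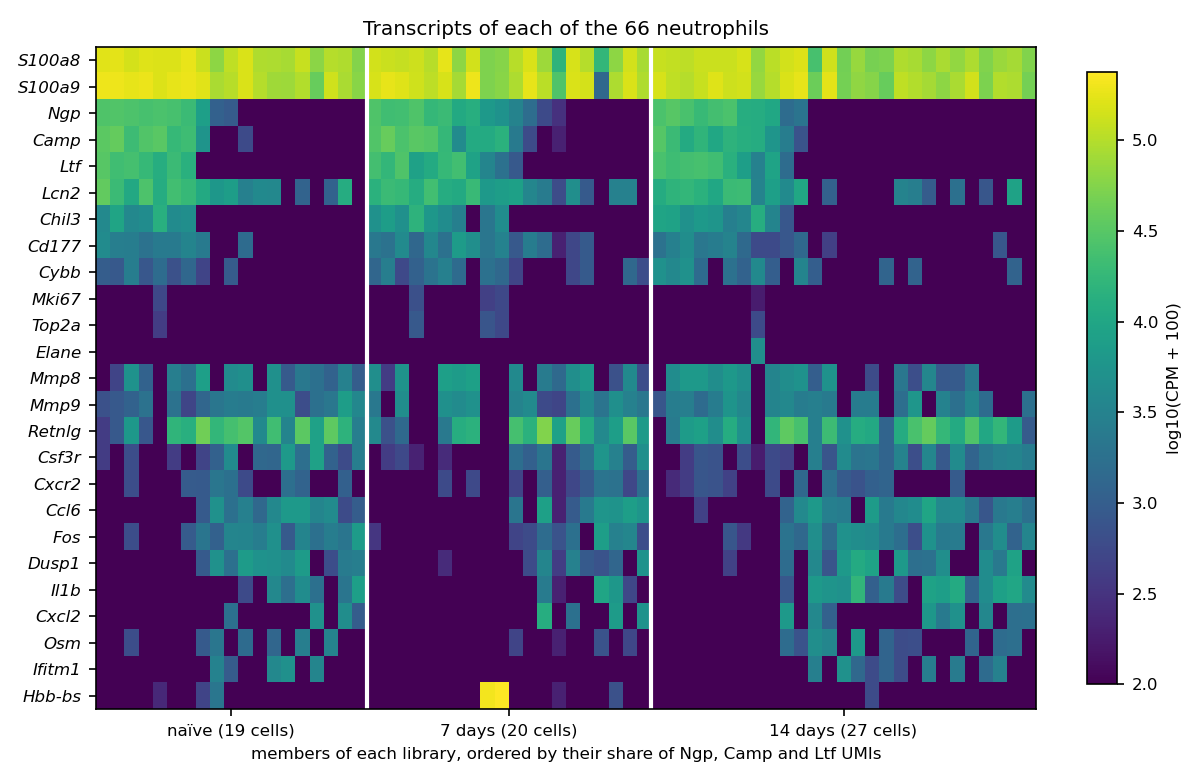
Levels of 25 genes in each of the 66 neutrophils, as log10 of CPM plus 100. Cells of each library are ordered by the share of their UMIs that came from Ngp, Camp and Ltf.

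Within the granule-high cells, 7 had no Retnlg (1, 4 and 2 by library). Of these, 5 carried the proliferation marker Mki67, 5 carried the DNA topoisomerase gene Top2a, and none carried Mmp8. Among the 22 with Retnlg, none carried Mki67 or Top2a and 21 carried Mmp8. The summed level of the cell-cycle list was 11515 CPM in the former and 2793 CPM in the latter. Members with Mki67 thus numbered 1, 3 and 1 by library, and 2 of the 3 at 7 days were also rich in haemoglobin transcripts. A single 14-day cell of this kind, the deepest member with 12564 UMIs, held all 57 UMIs of Elane and all 29 of Mpo, for the primary granule enzymes neutrophil elastase and myeloperoxidase, and 35 of 36 of Prtn3, for proteinase 3. It also gave 129 of the 130 UMIs of the primary granule list at 14 days, against 1 UMI in naïve mice and 0 at 7 days. Olfm4, which encodes the granule protein olfactomedin 4, was likewise seen in just 1 cell of each library, with 10, 2 and 15 UMIs.

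Camp, Ngp and Ltf are separate genes near each other on chromosome 9, and their promoters were read for the C/EBP-type motif TTGCNNAA on both strands, since C/EBPε is the factor known for driving secondary granule genes. In windows of 250 bases at the RefSeq starts, Ngp had 2 matches, Ltf 1, Lcn2 1 and Camp 0, while 3142 of 32851 mouse promoters (9.56%) had at least 1. The stretches of Ngp (chr9:110419558-110419737) and Ltf (chr9:111019042-111019261) are shown because both genes belong to the split and carry a match. They are from build GRCm38.p6 on the plus strand, end before the first annotated transcript and have the motif in capitals, 1 of the 2 matches for Ngp. A match describes the sequence, and binding was not tested.
Ngp: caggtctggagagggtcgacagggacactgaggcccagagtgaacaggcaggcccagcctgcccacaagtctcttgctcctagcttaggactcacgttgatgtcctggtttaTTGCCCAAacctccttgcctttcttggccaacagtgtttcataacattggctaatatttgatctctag
Ltf: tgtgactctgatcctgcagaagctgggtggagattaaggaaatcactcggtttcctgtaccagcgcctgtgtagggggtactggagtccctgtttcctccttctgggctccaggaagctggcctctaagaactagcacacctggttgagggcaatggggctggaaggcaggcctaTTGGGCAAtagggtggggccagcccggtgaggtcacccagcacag

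Between libraries, 2539 genes were counted, those with a mean pooled level of at least 50 CPM. At 7 days 460 genes (18.1%) were more than 2-fold higher than in naïve neutrophils and 305 (12.0%) more than 2-fold lower, with a median log2 ratio of -0.03. At 14 days 489 (19.3%) were higher and 257 (10.1%) lower, with a median of 0.15. Most of these differences rest on few molecules: 614 of the 765 genes at 7 days and 584 of the 746 at 14 days had 3 or fewer UMIs in 1 of the compared libraries. The balance also depended on scaling. With the median ratio set to 1 it was 464 higher and 289 lower at 7 days and 374 and 358 at 14 days, and with S100a8 and S100a9 left out of the totals, which raised the genes counted to 3162, it was 610 higher (19.3%) and 598 lower (18.9%) at 7 days and 546 (17.3%) and 513 (16.2%) at 14 days. Leaving these 2 genes out moved the medians to -0.16 at 7 days and 0.00 at 14 days. The same shares serve as the background for the gene lists that follow. Of the 16 neutrophil markers 1 was higher and 1 lower at 7 days and 1 higher and 0 lower at 14 days, with median log2 ratios of -0.34 and -0.43, and with either of these scalings 2 were lower at 14 days. In the main run the higher marker at both times was Stfa2l1, for a stefin, at 124, 338 and 436 CPM. The marker lower at 7 days was Trem1, for an activating receptor, at 223, 80.6 and 225.5 CPM.

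The secondary granule list summed to 76696, 58470 and 54417 CPM in naïve mice, at 7 days and at 14 days. At 7 days 0 of its 15 counted genes were past 2-fold higher and 3 lower, with a median log2 ratio of -0.39. Without the 7-day members with haemoglobin or Fabp7 described below, 1 was higher and 2 lower, with a median of -0.09. Without the deepest member of each library 2 were higher and 2 lower, with a median of 0.06. At 14 days 1 was higher and 0 lower, or 1 and 2 with either of the same scalings. The higher gene was Cybb, which encodes the membrane subunit of the NADPH oxidase that makes superoxide, at 719, 983 and 1954 CPM (29, 61 and 130 UMIs). Its 14-day level was 2.72-fold that of naïve mice (1.81–4.22), and within granule-high cells alone the pooled levels were 1089, 1479 and 2889 CPM. The rise was uneven, as 1 cell gave 49 of the 130 UMIs at 14 days, the medians of granule-high cells were 830, 1305.5 and 1573 CPM, and 41.2%, 49.2% and 42.4% of thinned members carried the gene. Of all 8 oxidase genes, 1 was higher at 7 days and 2 at 14 days, and none was lower. The tertiary granule list, with Mmp9 and Mmp8, had 0 of 10 genes past 2-fold in either direction at both times.

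Among secreted factors, Il1b stood at 694, 516 and 2059 CPM (28, 32 and 137 UMIs), found in 7, 5 and 16 cells. The 14-day level was 2.97-fold that of naïve mice (1.97–4.63). Since Il1b lies in granule-low cells, the comparison was repeated there and gave 1914, 1287 and 5330.5 CPM, and 29.1%, 18.4% and 51.5% of thinned members carried it. Osm, which encodes the cytokine oncostatin M, was at 496, 64.5 and 586 CPM, a 7-day ratio of 0.13 (0.032–0.388). Il1rn, for the antagonist of the interleukin-1 receptor, was at 322, 64.5 and 165 CPM. The neutrophil attractant gene Cxcl2 was at 372, 838 and 767 CPM, but in only 4, 4 and 9 cells, and 1 cell gave 9 of 15 naïve and 26 of 52 7-day UMIs. Its 14-day log2 ratio was 1.02, and 5 alternatives brought it under 1. The whole list of 8 counted genes had 1 higher and 3 lower at 7 days and 2 higher and 1 lower at 14 days, but with the median ratio set to 1 or with S100a8 and S100a9 out of the totals the 14-day counts were 1 and 3.

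**Figure D3:**
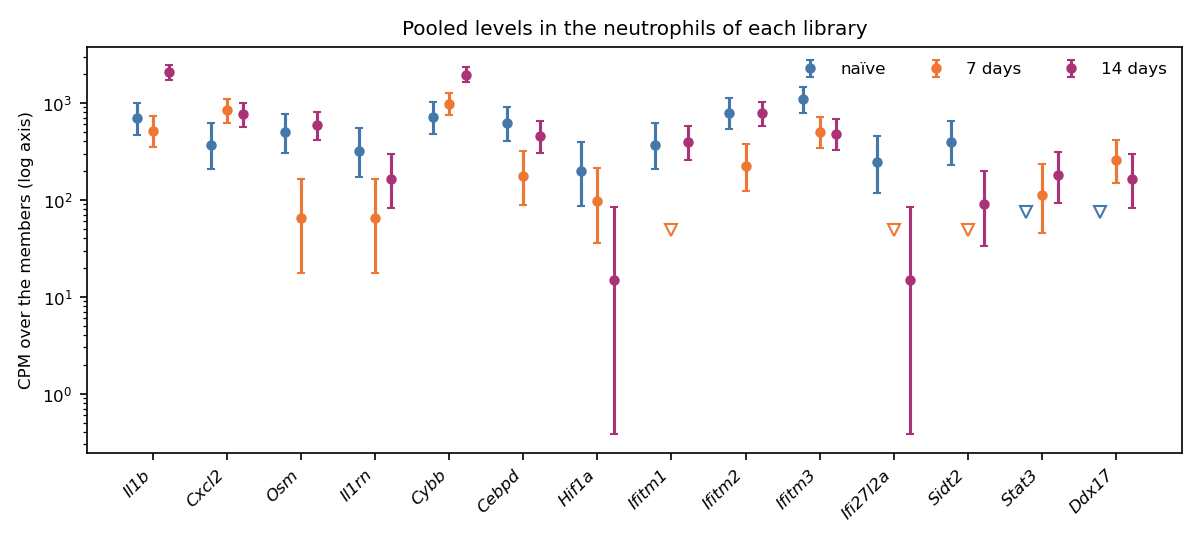
Pooled levels of 14 genes in the neutrophils of each library, with exact 95% intervals for counting error. Open triangles stand at the level that 3 UMIs would give, for genes with none. The axis is logarithmic.

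Genes of the interferon response were lower at 7 days. Of 9 counted, 7 were past 2-fold lower and 0 higher, with a median log2 ratio of -1.20 against -0.03 over all genes, and at 14 days 3 were lower and 0 higher with a median of -0.26. The summed level of the list was 5107, 2434 and 3818 CPM. Ifitm1, Ifitm2 and Ifitm3 encode membrane proteins that restrict virus entry and are neighbours on chromosome 7. Ifitm1 had 15, 0 and 26 UMIs, so it was at least 7.69-fold lower at 7 days, with a floor of 3 UMIs over the group. Ifitm2 was at 793, 226 and 782 CPM and Ifitm3 at 1091, 499.6 and 481 CPM. Without the 3 members with haemoglobin or Fabp7 described below, 4 of the 9 genes were past 2-fold lower at 7 days in place of 7, and the log2 ratio of Ifitm3 was -0.82 in place of -1.11. All Ifitm1 UMIs lay in granule-low cells, which numbered 11, 9 and 17, and there it was at 1025, 0 and 1027 CPM. Ifi27l2a, an interferon-induced gene, had 10, 0 and 1 UMIs, and Slfn4, a schlafen family member, was at 471, 210 and 391 CPM.

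Surface receptors were next. Cxcr2, for the receptor of CXCL1 and CXCL2, was at 397, 322 and 301 CPM and Csf3r at 843, 709 and 917 CPM, both named in the choice of cells. In the list of attractant receptors 0 of 8 counted genes were higher and 2 lower at 7 days, one of them Fpr1 for a formyl peptide receptor at 298, 96.7 and 210.5 CPM, and none passed 2-fold at 14 days. In the list of cytokine, Fc and pattern receptors 0 of 18 were higher and 5 lower at 7 days, and 2 higher and 0 lower at 14 days. Pirb, which encodes an inhibitory receptor, was at 768, 274 and 646 CPM. The adhesion and migration list had 1 of 14 lower at 7 days and 1 higher at 14 days. With S100a8 and S100a9 out of the totals, the median ratio set to 1 or a pseudocount of 50 CPM, 0 were higher at 14 days. Granule-low members alone gave 1 higher and 5 lower at 7 days and 2 higher and 3 lower at 14 days.

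Of 19 transcription factor genes counted, 1 was higher and 5 lower at 7 days and 3 were higher and 3 lower at 14 days, with 2 to 8 lower at 7 days over the alternatives. Cebpd, for the factor C/EBPδ, was at 620, 177 and 451 CPM and Junb, for an AP-1 subunit, at 570, 499.6 and 1157 CPM. The 14-day log2 ratio of Junb was 1.01, and 5 alternatives brought it under 1. Hif1a, for the oxygen-sensitive factor, fell from 8 UMIs in 8 naïve cells to 6 UMIs and then 1, a 14-day ratio of 0.0758 (0.0017–0.565). In the list of genes of mature neutrophils, 1 of 17 was higher and 2 lower at 7 days and 2 were higher and 0 lower at 14 days. The cell-cycle list had 3 of 12 higher and 0 lower at 7 days and 1 higher and 4 lower at 14 days. It depended on single cells. Leaving out the deepest member of each library removed the only Mki67 cell of naïve mice, with 101 of the 181 UMIs of the list, and that of 14 days, with 113 of 235, but none of the 3 at 7 days. It gave 10 higher and 0 lower at 7 days and 2 and 3 at 14 days, whereas without the members with haemoglobin or Fabp7 the list had 2 higher and 1 lower at 7 days. Counts for survival genes were 1 of 7 higher and 1 lower, then 1 and 0, but 4 were lower at 7 days with S100a8 and S100a9 out of the totals and 3 with means of per-cell CPM. For heat shock and dissociation genes they were 1 of 13 higher and 1 lower, then 2 and 0, for glycolysis and hypoxia 0 of 11 and 1, then 1 and 1, and for leukotriene and prostaglandin synthesis 0 of 6 and 0, then 2 and 0. Each of these 3 lists too had a count that changed by at least 2 genes with another scaling.

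Mitochondrial transcripts, which the choice of cells used only through the limit of 20%, were higher after injury. The median mitochondrial share of a neutrophil was 2.36%, 4.72% and 7.40%. Granule-low cells had medians of 2.36%, 3.76% and 8.01% and granule-high cells 2.09%, 4.98% and 6.10%. All 11 counted of the 13 mitochondrial protein genes were past 2-fold higher at both times, with median log2 ratios of 1.49 and 1.66. At 7 days this count depended on few cells, since 5 of the 11 passed 2-fold without the deepest member of each library and 3 without the 3 members with haemoglobin or Fabp7, at medians of 0.84 and 0.95, and 8 did with means of per-cell CPM. At 14 days all 11 did in these 3 cases, and at least 10 under every alternative. The cytochrome oxidase gene mt-Co1 was at 4784, 13489 and 12808 CPM. One 7-day cell with 15.2% gave 302 of the 837 mt-Co1 UMIs there, and leaving it and 2 cells with haemoglobin out brought the pooled share at 7 days from 5.98% to 4.02%, but the median share only from 4.72% to 4.46%. Over the other kept barcodes the medians were 9.94%, 10.8% and 11.5%.

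**Figure D4:**
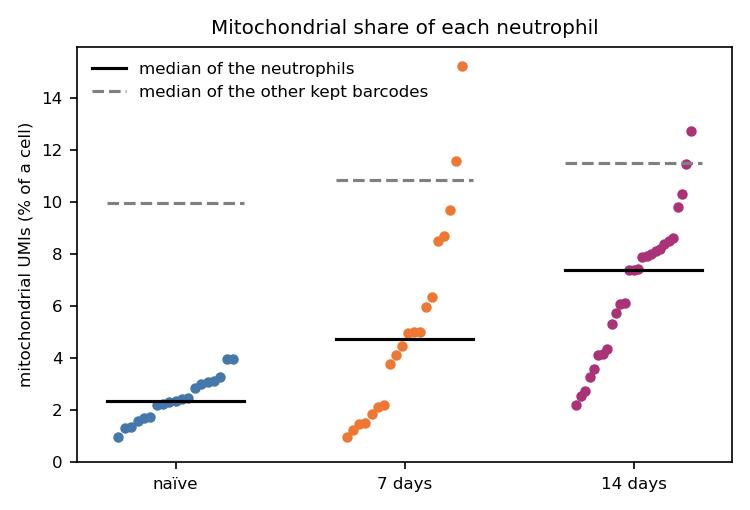
Mitochondrial share of the UMIs of each neutrophil, with the median of the neutrophils (solid) and of the other kept barcodes (dashed) in each library.

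By rank of log2 ratio, the 10 genes highest at 7 days were Hbb-bs (7.43), Dbi (6.77), Zbtb20 (5.12), Ddx17 (4.74), Rab10 (4.74), Mpp1 (4.10), Myo5a (3.96), Apoe (3.84), Ankrd28 (3.80) and Ethe1 (3.80). All but Hbb-bs and Apoe had no UMI in naïve neutrophils, so their values are set by the pseudocount, and with a floor of 3 UMIs Dbi was at least 14.5-fold higher, Zbtb20 4.55-fold, Mpp1 2.17-fold, Myo5a 1.95-fold and Ankrd28 and Ethe1 1.73-fold. Several owe their place to single cells. A 7-day cell of 9638 UMIs gave 64 of 67 UMIs of Dbi, for an acyl-CoA-binding protein, 196 of 207 of the apolipoprotein gene Apoe and 18 of 21 of Zbtb20. It had 11 UMIs of the SGC marker Fabp7. Without it and 2 cells with 1082 and 1008 haemoglobin UMIs, Apoe was at 212 CPM against 223 in naïve mice and Hbb-bs at 21.2 against 99.2. Rab10 was at least 3.47-fold higher, but 1 cell gave 11 of its 16 UMIs at 7 days. Without the same cells Rab10 had 4 UMIs, or 84.8 CPM, where 3 UMIs in naïve mice correspond to 74.4 CPM. Ddx17, an RNA helicase gene, was spread over 11 cells at 7 days and 9 at 14 days, with 0, 16 and 11 UMIs, and was at least 3.47-fold and 2.22-fold higher.

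The 10 lowest at 7 days were the lysosomal membrane gene Sidt2 (-5.35), Ifitm1 (-5.25), Ifi27l2a (-4.69), the inflammasome adaptor gene Pycard (-3.74), the autophagy gene Atg2a (-3.45), Ppp2r5c (-3.45), Atp11a (-2.81), the autophagy gene Becn1 (-2.81), Osm (-2.76) and Gm34084 (-2.61). The first 6 had no UMI at 7 days, and their values are set by the pseudocount. Sidt2 had 16, 0 and 6 UMIs, which is at least 8.20-fold lower at 7 days. At 14 days the highest included Stat3 (4.25), for a cytokine-activated transcription factor, Ddx17 (4.13), Mier3 (4.13), Strn3 (10 UMIs), the actin-branching gene Arpc1a (3.86), Egr1 (3.86), Ep400 (3.86), Fmo5 (3.86) and Gm2a (3.86). All of these had no UMI in naïve neutrophils, where 3 UMIs correspond to 74.4 CPM, so the pseudocount sets their values, and Stat3, with 12 UMIs in 9 cells, was at least 2.43-fold higher. The lowest at 14 days included Arl8b (-3.74), Unc13d (-3.74), which encodes a protein of granule release, Dpysl2 (-3.45), Ifi27l2a (-3.37), Antxr2 (-3.06), Hif1a (-3.06), Aatk (-2.87), Spcs2 (-2.67) and Cyth1 (-2.42). The first 3 of these had no UMI at 14 days.

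Transcripts of other cells were gathered in few members. The red cell list summed to 4, 2109 and 3 UMIs, with Hbb-bs the most abundant gene, and the 2 haemoglobin-rich 7-day cells also carried Alas2, the haem synthesis gene of red cell precursors. The SGC list had all 5 counted genes higher at 7 days and 2 higher at 14 days, with 14, 279 and 37 UMIs, mostly Apoe. Macrophage markers, of which Csf1r and C1qa were limited by the choice of cells, gave 10, 213 and 30 UMIs, mostly Apoe. None of the 5 counted monocyte markers passed 2-fold at either time. The part of these transcripts in the remaining differences was not tested.

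Ligands of CXCR2 were scarce outside the members. Over the other kept barcodes Cxcl1, for a ligand of CXCR2, had 0, 8 and 29 UMIs, Cxcl2 0, 29 and 6 and Cxcl5 2, 2 and 4. Csf3, for granulocyte colony-stimulating factor, had 0 in all 3 libraries, while Ccl2 had 90, 148 and 364 UMIs and Ccl7 84, 228 and 153. All 29 Cxcl2 UMIs at 7 days were in macrophage-gated cells. Cxcl12, for the ligand of CXCR4, was at 1934, 2366 and 2303 CPM in endothelium-gated cells. Of the endothelial genes that slow and stop neutrophils, Selp for P-selectin was at 10.1, 9.10 and 6.45 CPM, Sele for E-selectin had 0, 1 and 5 UMIs, and Icam1 was at 26.8, 21.5 and 20.1 CPM.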

How the data were processed

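For each of 3 libraries the authors deposited a matrix of UMI counts for 31053 genes, made with Cell Ranger 3.0.2 on build mm10 according to the submitters' processing notes. The 3748, 3281 and 4908 barcodes held 23107376, 22343246 and 36550911 UMIs. Barcodes under 300 genes (148, 94 and 192) and over 20% mitochondrial UMIs (396, 509 and 958) were left out. Scrublet in scanpy 1.11.5 marked 0.955%, 0.989% and 0.901% of kept barcodes as doublets. These were kept, and no member was among them.

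UMIs of the members were summed per library (40341, 62049 and 66523) and scaled to CPM, the usual library-size scaling. Log2 ratios to naïve mice used a pseudocount of 10 CPM and genes with a mean of at least 50 CPM. With 1 library per condition no test was made. Exact Poisson intervals for levels, exact Clopper-Pearson intervals for shares and exact binomial intervals for ratios came from scipy 1.17.1 under python 3.11.15. Named genes are the 10 highest and 10 lowest ratios per comparison with a UMI in at least 20% of members of the higher library. The members and gene lists were chosen with earlier results of these data known. Calculations were tested on simulated counts that held no differences between cells and in which only genes of higher level were changed, by large folds. This checked the code and cannot tell how many of the genes past 2-fold here differ by counting error.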

Additional observations from a re-analysis of the deposited data

Results flagged for a closer look

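Hbb-bs, which encodes a haemoglobin β chain, was past 2-fold higher at one time and past 2-fold lower at the other, with a log2 ratio to naïve mice of 7.43 at 7 days and -2.12 at 14 days. Its levels were 99.2, 18872 and 15.0 CPM, from 4, 1171 and 1 UMIs, so the interval of the 14-day ratio, 0.00308–1.53, includes 1, and 2 cells of the 7-day library held 1082 and 1008 haemoglobin UMIs. Without them and 1 cell with Fabp7 the 7-day log2 ratio was -1.81. The difference was not tested.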

How the results depend on the processing

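No paired analysis was possible because every condition is a single pooled library. The 66 cells give wide counting intervals, and with 1 library per condition no difference could be tested. Alternatives to the choices were the gene and mitochondrial limits, the minimum of S100a8 and S100a9, the number of further markers, doublets, pseudocount, filter and scaling. Chosen after seeing the data were runs without members carrying haemoglobin or Fabp7, without the deepest member of each library, and with granule-low members alone.

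With at most 10% mitochondrial UMIs the neutrophil shares were 1.15% (19 of 1650), 1.53% (18 of 1179) and 1.67% (24 of 1436), because that limit removes mostly other cells. The 765 of 2539 genes past 2-fold at 7 days (30.1%) became 367 of 2539 with a pseudocount of 50 CPM (14.5%), 5012 of 9217 without a filter (54.4%), 285 of 1329 at a mean of at least 100 CPM (21.4%), 1208 of 3162 with S100a8 and S100a9 out of the totals (38.2%) and 1380 of 2639 in granule-low members (52.3%). At 14 days, with the same numbers of genes counted, the 746 became 343 with a pseudocount of 50 CPM, 4519 without a filter, 279 at 100 CPM and 1198 in granule-low members.

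Of 288 summed list levels, 113 left their counting interval, 59 with S100a8 and S100a9 out of the totals, 52 with means of per-cell CPM and 2 with at least 50 UMIs of S100a8 and S100a9. Lists were not summed under the other alternatives. Of 136 log2 ratios past 2-fold, 47 were no longer so in the same direction in at least 1 alternative, among them 36 with a pseudocount of 50 CPM, 15 with means of per-cell CPM, 9 with the median ratio set to 1, and 7 each with at least 500 genes and with S100a8 and S100a9 out of the totals. The runs on fewer members lost 11 of 131 still counted without members carrying haemoglobin or Fabp7, 9 of 128 without the deepest and 12 of 116 with granule-low members. At 14 days Junb went from 1.01 to 0.84 with the 2 genes out of the totals, 0.86 with the median set to 1, 0.91 with at least 500 genes, 0.96 with a pseudocount of 50 CPM and 0.97 in granule-low members. Cxcl2 went from 1.02 to 0.86 with the 2 genes out, 0.87 with means of per-cell CPM, 0.88 with the median set to 1, 0.95 with a pseudocount of 50 CPM and 0.34 in granule-low members.

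Some log2 ratios changed sign, and the cause was not tested. At 7 days Hbb-bs was at -1.81 without members carrying haemoglobin or Fabp7 and -0.70 in granule-low members, Apoe at -0.07 without those members and -0.17 without the deepest, and Fas at -0.64 in granule-low members. At 14 days granule-low members gave -0.66 for Ceacam1, -1.57 for Ldha and -0.66 for Lta4h. Means of per-cell CPM gave -0.28 for Fas and -0.069 for Ldha, and leaving out the deepest members gave -0.084 for Ifngr1 and -0.09 for Ldha.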

Other observations

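Barcodes with at least 50 haemoglobin UMIs numbered 8, 9 and 14 among those kept, and 0, 2 and 0 of them were members. The complement gene C3 rose outside the neutrophils from 24 UMIs in naïve mice to 76 at 7 days and 350 at 14 days, or 1.13, 3.81 and 10.8 CPM. Endothelium-gated cells had Podxl, which encodes podocalyxin, at 504, 619 and 792 CPM.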
